A study of Mus musculus with 27 samples.

Results

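The ventricle of adult mice with MBNL1 loss of function was compared with the ventricle of newborn control mice, to describe how far a set of fetal heart genes had returned to the level of the newborn. The comparison used 16 of the 27 RNA-seq libraries of the study. Of these, 9 are labelled KO at postnatal day 60, with 5 taken 7 days and 4 taken 14 days after knockout. The other 7 are neonatal controls, 4 of postnatal day 1 (P1) and 3 of postnatal day 7 (P7). The labels give all libraries as mouse ventricle and give the loss-of-function and control genotypes by name only. The allele, the way the knockout was induced, its cell type, the strain and whether each library is a separate animal are not given in the sources used here, so the p-values cover the variation among these libraries only, and that may be technical. The 7 control libraries of postnatal day 60, with the same 2 times, served as the adult reference. The fetal genes were 86 genes in 5 groups: contractile genes, hormone and ion channel genes, oncofetal and imprinted growth genes, cytoskeletal genes and developmental transcription factors. All values are gene-level read counts, given below as CPM (each library's counts scaled to one total) after scaling for library composition.

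The heart of a newborn mouse still grows by cell division, and its cardiomyocytes carry slow or fetal forms of several sarcomere proteins, use much glucose and express natriuretic peptides in the ventricle. Over the first weeks of life these forms are replaced, cell division ends and oxidation of fatty acids becomes the main source of energy. Under load or injury, adult ventricle turns part of this fetal program on again, with Nppa, Nppb, Acta1 and Myh7 as the usual markers. MBNL1 is an RNA-binding protein that promotes adult splicing patterns and binds many mRNAs in heart and muscle, and it is known for its loss of function in myotonic dystrophy.

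The promoter windows below show, for 4 genes that exceeded the neonatal level and 1 that stayed far under it, the 250 bases before the RefSeq gene start on GRCm38.p6, written 5′ to 3′ on the gene's strand. Acta1 (chr8:123894776-123895025, − strand), Ankrd1 (chr19:36119845-36120094, − strand), Nppb (chr4:147985650-147985899, + strand) and Nppa (chr4:148000472-148000721, + strand) are the 4 that exceeded it, and Tnni1 (chr1:135799171-135799420, + strand) is the 1 that did not. Capitals mark matches to the MCAT motif CATTCC, bound by TEAD factors, on either strand (GGAATG on the other), and in Acta1 also a CArG box, the motif of serum response factor. The CArG box was searched only as CC and GG around a fixed-length run of A or T. Nppa and Tnni1 hold no exact match to either motif, and inexact matches were not searched.
Acta1: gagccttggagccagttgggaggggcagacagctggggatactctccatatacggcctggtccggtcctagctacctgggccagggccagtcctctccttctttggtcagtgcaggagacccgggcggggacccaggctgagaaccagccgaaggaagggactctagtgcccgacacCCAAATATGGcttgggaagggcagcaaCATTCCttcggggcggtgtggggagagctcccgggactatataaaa
Ankrd1: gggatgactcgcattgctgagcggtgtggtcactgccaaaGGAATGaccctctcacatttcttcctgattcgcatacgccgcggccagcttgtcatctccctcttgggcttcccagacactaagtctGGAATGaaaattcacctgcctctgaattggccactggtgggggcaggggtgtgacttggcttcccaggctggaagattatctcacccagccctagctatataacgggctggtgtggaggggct
Nppb: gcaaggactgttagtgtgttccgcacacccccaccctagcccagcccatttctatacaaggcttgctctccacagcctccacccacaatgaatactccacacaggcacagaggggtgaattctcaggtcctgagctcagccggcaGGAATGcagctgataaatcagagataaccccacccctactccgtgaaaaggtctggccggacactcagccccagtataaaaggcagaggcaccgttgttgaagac
Nppa: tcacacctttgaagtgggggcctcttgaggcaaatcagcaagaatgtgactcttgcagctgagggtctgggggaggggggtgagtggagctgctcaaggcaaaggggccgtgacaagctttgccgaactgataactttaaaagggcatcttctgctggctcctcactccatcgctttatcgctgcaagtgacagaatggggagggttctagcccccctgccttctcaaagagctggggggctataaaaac
Tnni1: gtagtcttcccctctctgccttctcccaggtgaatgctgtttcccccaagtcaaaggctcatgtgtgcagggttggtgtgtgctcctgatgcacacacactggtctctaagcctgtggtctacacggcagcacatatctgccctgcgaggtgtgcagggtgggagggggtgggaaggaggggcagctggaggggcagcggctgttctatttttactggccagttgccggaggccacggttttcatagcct
Of the 27025 genes with such a window, 12.6% held an MCAT match and 1.40% held a CArG box, and the 2 motifs share no letters in a match here. Among fetal genes above the neonatal level, 5 of the 12 with a window (41.7%) held an MCAT match: Acta1, Ankrd1, Myl1, Nppb and Yap1. Among those below it, 8 of 41 (19.5%) did, and among those not told apart from it, 1 of 7 (14.3%), which was Myh7. A CArG box was found in 1 of 12, 2 of 41 and 0 of 7. These are matches of letters in a short window and not measured binding sites.

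Library totals in the 16 libraries ran from 23455338 to 25675115 counts, so that the floor of 3 counts corresponds to 0.128 CPM in the shallowest. Mbnl1 (chromosome 3, 60472830 to 60629750, GRCm38) was read at 103, 137 and 219 CPM (lowest, median and highest) in the libraries labelled KO, at 62.4 to 104 CPM in the neonatal controls and at 145 to 169 CPM in the adult controls. A gene total that counts all exons does not check a deletion of part of the gene, and the deleted part is not given, so the labels are taken as they stand. Esr1, the estrogen receptor alpha gene, separated the labels: it was at 193, 1672 and 1983 CPM in the libraries labelled KO, at 0.127 to 0.353 CPM in the neonatal controls and at 0.482 to 1.49 CPM in the adult controls. The log2 fold change over neonatal controls was 12.43. Whether these reads come from the mouse's own gene or from a transgene was not tested. KO-labelled libraries 1 and 5, both of 7 days, stood apart from the other 7 on the second principal component (54.9 and 61.4 against -32.8 to 8.71), and they also had the 2 lowest Esr1 values. P1 controls 3 and 4 stood apart from P1 controls 1 and 2 on the first component. Both sexes, read from the data, were present in each group. These are bulk tissue libraries, in which fewer cells of a type and less RNA per cell cannot be told apart.

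Most of the transcriptome still separated adult ventricle labelled KO from neonatal ventricle. Of 15632 genes tested with edgeR's quasi-likelihood test, 9863 (63.1%) differed at a Benjamini-Hochberg adjusted p under 0.05, with 4945 higher (31.6%) and 4918 lower (31.5%) in the KO-labelled group. Scaling by total count instead moved the median of all genes by -0.25 on the log2 scale and the share of higher genes among those called from 50.1% to 31.2%, so small changes below are relative to that scaling. Against this background, 83 of the 86 fetal genes could be tested. Of these, 16 were above the neonatal level, 56 were below it and 11 were not told apart from it. Of the 11, 9 had a 95% interval inside 2-fold in both directions. Over all genes, 60.3% had such an interval, and 32.8% had it and were not called. Myh3, Lin28a and Isl1 were too low to test. The lists were chosen with earlier results of these data known, so their age difference is described here and does not test the choice. Of the 83, 68 were lower in adult than in neonatal controls and 7 were higher. Over all 16388 genes, 75.6% were called (39.4% lower, 36.2% higher). The exceptions included Acta1, Myl1, Hand2, Tbx5, Tead1 and Yap1. Against adult controls, where 60% of 15951 genes were called (30.7% higher, 29.4% lower), 44 of 76 fetal genes were higher in the libraries labelled KO and 9 lower.

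The 5 groups did not split alike. Every tested oncofetal and imprinted gene (22 of 22) was lower, with a median log2 fold change of -3.11 against 0.00 for all genes. Among developmental transcription factors, 14 of 19 were lower and 2 higher (median -0.80). The hormone and channel group held 5 higher and 6 lower genes of 12 (median -0.26). Contractile genes gave 5 higher and 7 lower of 15 (median -0.70). Cytoskeletal genes gave 4 higher and 7 lower of 15 (median -0.17), which became 2 and 7 without KO-labelled libraries 1 and 5. Without those 2 libraries the whole set gave 13 genes above and 55 below, and without P1 controls 3 and 4 it gave 14 and 53. Under total count scaling it gave 11 above and 58 below.

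**Figure D1:**
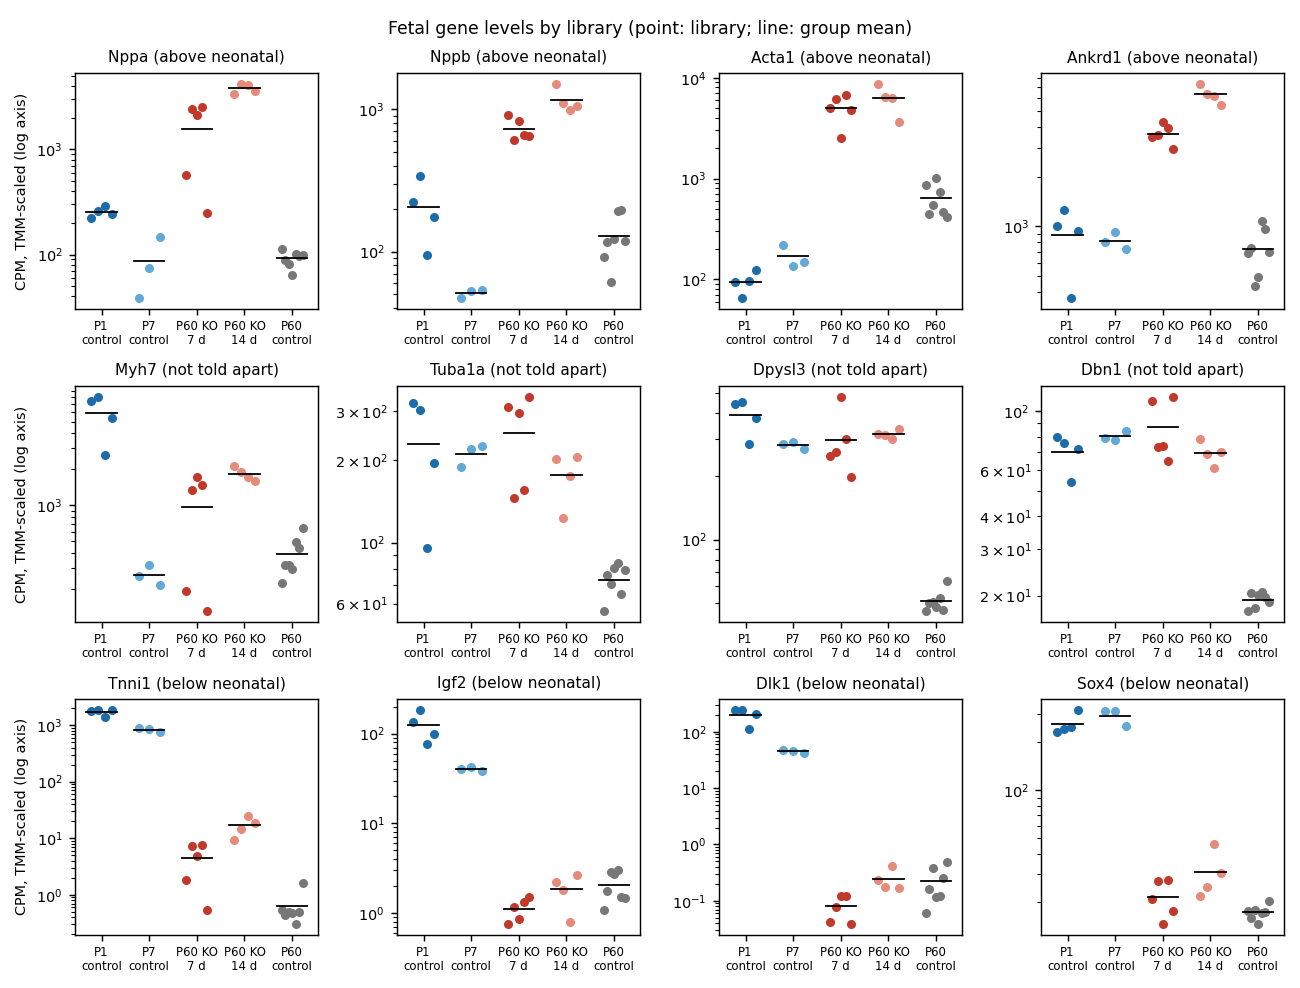
Levels of 12 fetal genes in every library, in CPM on a log axis, by group (P1 controls, P7 controls, KO-labelled at 7 and 14 days, adult controls). Each point is 1 library and each line the group mean. The top row exceeds the neonatal level, the middle row lies within its range or overlaps it, and the bottom row stays under it.

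**Figure D2:**
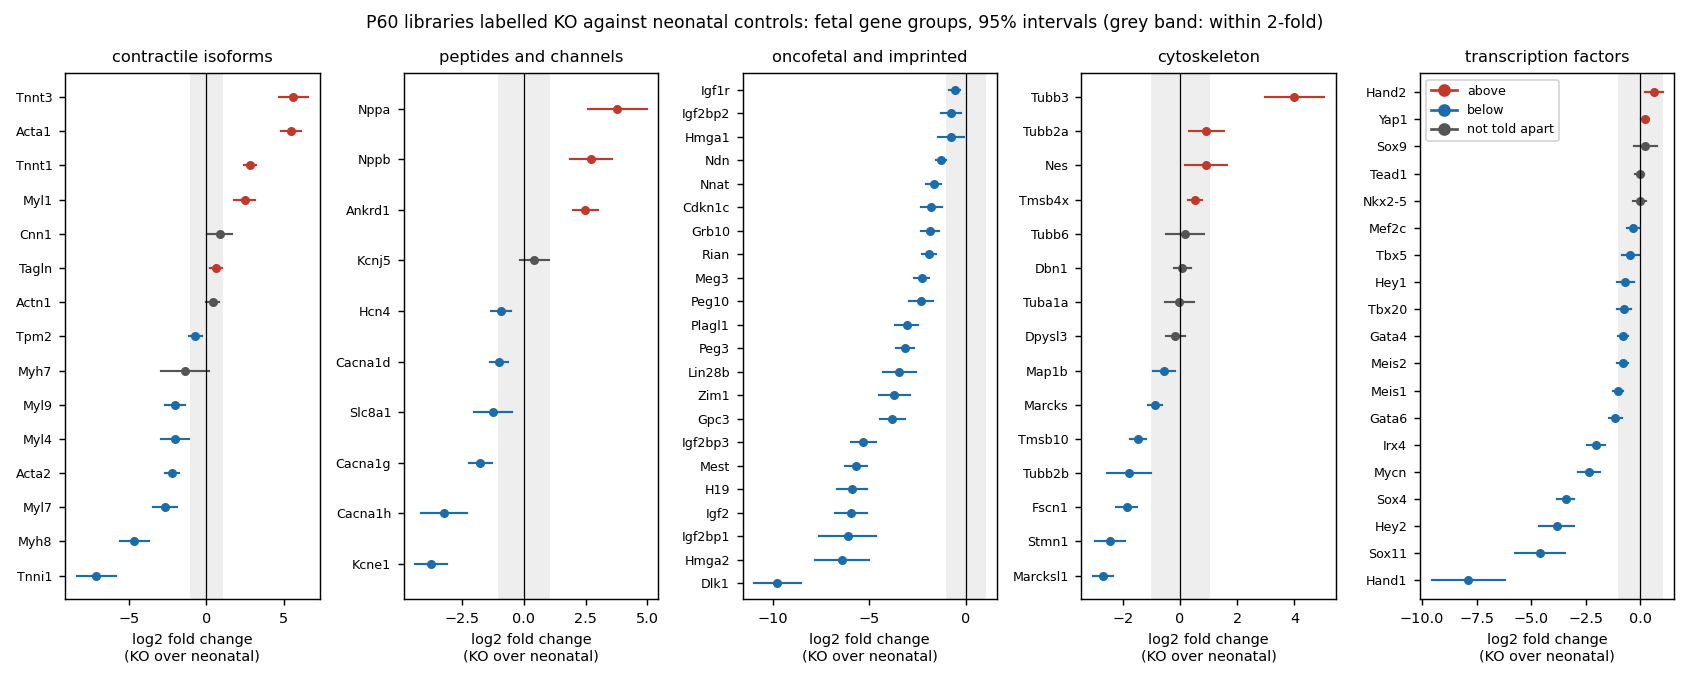
Log2 fold change of libraries labelled KO (n = 9) over neonatal controls (n = 7) for 81 of the 83 tested fetal genes in 5 groups, with 95% intervals. The grey band marks changes within 2-fold. Intervals of the 14 drawn genes called above lie to the right of 0, those of 56 called below to the left, and 22 of 22 oncofetal and imprinted genes lie to the left.

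The genes that exceeded the neonatal level included sarcomere genes of skeletal muscle, natriuretic peptides and cytoskeletal genes. Acta1 (chromosome 8, 123891769 to 123894751), which encodes skeletal alpha-actin, was at 65.2, 125 and 220.3 CPM (lowest, median and highest) in the neonatal controls and at 2522, 6215 and 8672 CPM in the KO-labelled libraries. All 9 lay above all 7, as they did for 16.4% of all genes tested, and the log2 fold change was 5.46 ± 0.31 (± SE here and below, edgeR adjusted p = 2.53e-10). In the adult controls Acta1 was at 411 to 1015 CPM, already above the neonatal controls, so it was not higher in newborn than in adult ventricle here. Tnnt3, fast skeletal troponin T, was near the detection limit in the neonatal controls at 0.418, 0.972 and 1.28 CPM and at 14.9, 45.1 and 113 CPM in the KO-labelled libraries. KO-labelled library 1 was the highest and library 3 the lowest, with no overlap between the groups (log2 fold change 5.61 ± 0.45, adjusted p = 1.06e-08). Tnnt1, slow skeletal troponin T, was at 18.8, 24.3 and 27.2 CPM against 111, 164 and 244 CPM, also without overlap (log2 fold change 2.82 ± 0.18). Myl1, a fast skeletal myosin light chain, was at 8.7, 17.7 and 27.1 CPM against 32.4, 91.5 and 155 CPM and did not overlap (2.47 ± 0.31). In the adult controls, Tnnt3 was at 0.0612 to 0.561 CPM, Tnnt1 at 10 to 13.2 CPM and Myl1 at 31 to 49.3 CPM. Tagln, a smooth muscle actin-binding protein, was called above at about 1 CPM (0.64 ± 0.19) and lost the call in some alternatives. Reads of Tnnt3 cannot be told from those of the opposite-strand gene Prr33, nor those of Tagln from Pcsk7, where the counting is not stated to use strand.

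Nppa, atrial natriuretic peptide, was at 38.6, 224 and 292 CPM in the neonatal controls and at 248, 2535 and 4181 CPM in the libraries labelled KO. The groups overlapped through KO-labelled library 5 (248 CPM) alone. Library 1, at 576 CPM, was the next lowest, and the other 7 were at 2111 CPM or more. Its log2 fold change was 3.79 ± 0.57 (adjusted p = 1.59e-05), or 4.09 without libraries 1 and 5. Nppb, brain natriuretic peptide, was at 47.1, 93.9 and 339 CPM against 606, 918 and 1509.7 CPM with no overlap (2.71 ± 0.41, adjusted p = 1.73e-05). Here libraries 1 and 5 lay among the others, and the P1 controls (93.9 to 339 CPM) lay above the P7 controls (47.1 to 53.7 CPM). Ankrd1, a stress-responsive ankyrin repeat protein of the sarcomere, was at 367, 927 and 1261 CPM against 2968, 4312 and 7338 CPM, also apart (2.49 ± 0.24). Its adult controls (435 to 1072 CPM) lay within the neonatal range.

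Nppa is also a marker of atrial muscle, so the other atrial markers are given beside it. Summed over the 11 atrial markers without Nppa, levels were 213 to 828 CPM in the neonatal controls, 152 to 395 CPM in the libraries labelled KO and 207 to 364 CPM in the adult controls. Within the neonatal controls, P1 ran from 470 to 828 CPM and P7 from 213 to 600 CPM. With Nppa, 2 of 10 tested atrial markers were higher and 6 lower.

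Among cytoskeletal genes, Tubb3, a beta-tubulin best known from neurons, was at 0.382, 1.25 and 2.26 CPM against 5.73, 12.9 and 52.5 CPM with no overlap (4.0 ± 0.49, adjusted p = 1.96e-06). The adult controls, at 0.775 to 2.18 CPM, overlapped the neonatal ones. Tubb2a, another beta-tubulin with near-identical copies, was higher by a log2 fold change of 0.91 ± 0.29, and Nes, the intermediate filament protein nestin, by 0.91 ± 0.35. Both rested on some libraries: Nes was at 325 and 207 CPM in libraries 1 and 5 against a median of 85.1 CPM over all 9, and without them its log2 fold change was 0.50 (adjusted p = 0.171). For Tubb2a the value without them was 0.55 (adjusted p = 0.0592). Tmsb4x, thymosin beta 4, was higher by 0.53 ± 0.11, inside 2-fold. Of the transcription factors, Hand2 (0.62 ± 0.19) and Yap1, the Hippo pathway coactivator (0.22 ± 0.08), were called above by small amounts. Neither is higher in neonatal than in adult control ventricle here, with adult controls at 106 to 158 CPM for Hand2 and 81.9 to 105 CPM for Yap1, and both lost their call in some alternatives, with Yap1 at -0.035 under total count scaling.

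Among cytoskeletal genes, 4 were not told apart from the neonatal level. Dpysl3, a microtubule-associated protein of growing cells (chromosome 18, 43320984 to 43438286), was at 271, 290.4 and 451 CPM in the neonatal controls and at 199, 302 and 479 CPM in the libraries labelled KO, with the ranges largely overlapping. Its log2 fold change was -0.17 ± 0.16 with a 95% interval of -0.51 to 0.16, while the adult controls were at 45.6 to 63.6 CPM. Dbn1, the actin-binding protein drebrin, was at 53.9, 78 and 84 CPM against 60.9, 73.1 and 113 CPM (0.08 ± 0.14, interval -0.20 to 0.37), with adult controls at 17.5 to 20.6 CPM. Tuba1a, an alpha-tubulin, was at 95.3, 218 and 321 CPM against 123, 202 and 339 CPM (-0.03 ± 0.25, interval -0.54 to 0.49), with adult controls at 56.4 to 83.9 CPM. For these 3 genes every KO-labelled library lay above every adult control. Total count scaling turned the value of Dbn1 to -0.17, without a call, and put Dpysl3 below the neonatal level at -0.43 (adjusted p = 0.0267). Tubb6, another tubulin, was also not told apart (0.18 ± 0.31), but it spread from 40.7 to 196 CPM across the KO-labelled libraries, with 1, 3 and 5 high, and its sign turned in several alternatives. Tuba1a, Tubb6 and the other tubulins have near-identical copies, so the split of reads among them is uncertain.

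Actn1, the non-muscle alpha-actinin, was at 93.3, 110.0 and 123 CPM against 79.4, 118 and 223 CPM (0.40 ± 0.19, interval -0.01 to 0.81), with adult controls at 40.1 to 51.5 CPM. Sox9, a transcription factor of progenitor and matrix-forming cells, was at 11.6, 14.1 and 15.6 CPM against 5.69, 18 and 29.4 CPM (0.22 ± 0.25, interval -0.31 to 0.74), with adult controls at 1.49 to 2.62 CPM. Actn1 was called above in the fits with more groups and without KO-labelled library 7 (0.48, adjusted p = 0.0264). The KO-labelled values of Actn1 and Sox9 ran from under the lowest to over the highest neonatal value. Nkx2-5, a cardiac transcription factor (-0.04 ± 0.14), Tead1, the MCAT-binding factor (-0.03 ± 0.10), and Kcnj5, a potassium channel subunit (0.42 ± 0.27), were also inside 2-fold. These 3 differ little between newborn and adult controls, by -0.30, 0.32 and -0.22 on the log2 scale (adult controls minus neonatal), so their neonatal and adult levels are close. In a separate fit against adult controls, 10 of the 11 fetal genes not told apart from the neonatal level were called higher and 1 lower. Over all genes in that fit, 30.7% were higher and 29.4% lower.

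The contractile genes Myh7 and Cnn1 were not told apart from the pooled controls, with intervals wider than 2-fold, and each differed between P1 and P7. Myh7, the slow beta-myosin heavy chain (chromosome 14, 54970684 to 54994626), was at 2625 to 8044 CPM in the P1 controls, 217 to 315 CPM in the P7 controls and 131, 1597 and 2116 CPM (lowest, median and highest) in the libraries labelled KO. It was thus lower than at P1 (log2 fold change -2.14 ± 0.48, edgeR adjusted p = 0.00104) and higher than at P7 (2.35 ± 0.65, adjusted p = 0.00594). KO-labelled libraries 1 and 5, at 191 and 131 CPM, lay under every P7 control, and the other 7 lay above all of them. Without P1 controls 3 and 4 the pooled log2 fold change was -1.27. Cnn1, a calponin of smooth muscle and myofibroblasts, was at 14.2 to 28.7 CPM at P1, 4.91 to 8.65 CPM at P7 and 12.1, 28.9 and 65.3 CPM in the libraries labelled KO. It was not told apart from P1 (0.30, interval -0.39 to 0.99) and was higher than at P7 (2.12, adjusted p = 4.20e-04). DESeq2 called the pooled difference, 0.86 by edgeR, at an adjusted p of 0.0343. Myh7 shares its locus with Mhrt on the other strand, whose reads cannot be told apart.

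The 56 genes below the neonatal level ran from a log2 fold change of -9.75 to -0.35, with a median of -2.05. In 43 the difference exceeded 2-fold and in 29 it exceeded 4-fold. In 41 of them all 9 KO-labelled libraries lay under all 7 neonatal ones, as for 14.2% of all genes tested. Set beside the adult controls in a separate fit with the same KO-labelled libraries, 21 of the 56 were higher than in adult controls, 8 were lower and 20 were not called, and 7 were too low to test there.

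Several oncofetal and imprinted growth genes lay far below the neonatal level. Dlk1, an imprinted Notch-like ligand (chromosome 12, 109452823 to 109463336), was at 41.9, 111 and 247 CPM in the neonatal controls and at 0.0391, 0.123 and 0.418 CPM in the libraries labelled KO (-9.75 ± 0.57, adjusted p = 3.24e-10). The KO-labelled libraries held 1 to 10 reads of it each and overlapped the adult controls (0.0603 to 0.491 CPM). Igf2, the fetal insulin-like growth factor, was at 38.4, 77.2 and 185 CPM against 0.755, 1.31 and 2.62 CPM (-5.94 ± 0.39), and H19, the noncoding RNA next to it, at 711, 2246 and 3202 CPM against 16.7, 31.3 and 39.8 CPM (-5.90 ± 0.37). Mest, an imprinted hydrolase-like protein, was at 380.1, 594 and 929 CPM against 6.84, 11.1 and 19 CPM (-5.69 ± 0.27). In these 4 genes the P1 controls lay above the P7 controls, and all KO-labelled libraries lay under both. Igf2 overlaps an antisense transcript and Mest overlaps Copg2 on the other strand. Plagl1, a transcription factor of the imprinted gene network, was at 125, 306 and 363 CPM against 17.2, 28.6 and 49.8 CPM (-3.06 ± 0.28), but all 9 values lay above the adult controls (6.69 to 10.7 CPM). Of the mRNA-binding IGF2BP family, Igf2bp1 (-6.13 ± 0.71) and Igf2bp3 (-5.30 ± 0.31) stayed near the detection limit, whereas Igf2bp2 was at 20.8, 37.6 and 50.6 CPM against 9.32, 18.9 and 29.2 CPM (-0.76 ± 0.25). Igf2bp2 and Igf1r, the growth factor receptor (-0.59 ± 0.14), were not told apart from P7, with log2 fold changes of -0.11 (interval -0.65 to 0.44) and -0.15 (interval -0.39 to 0.09). Both lay above all adult controls in all 9 libraries. Hmga1, an architectural chromatin protein with a near-identical copy, spread from 11.9 to 87.6 CPM and lost its call (-0.77 ± 0.33) when any library but KO-labelled library 5 was left out. Its relative Hmga2 was at 0.86 to 5.6 CPM in the neonatal controls and was read in 3 of the 9 KO-labelled libraries. The other growth genes (Meg3, Rian, Lin28b, Peg3, Peg10, Cdkn1c, Grb10, Ndn, Nnat, Zim1 and Gpc3) had log2 fold changes from -3.80 to -1.28.

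Tnni1, slow skeletal troponin I, the fetal counterpart of cardiac troponin I (chromosome 1, 135779434 to 135810989), was the contractile gene that fell furthest short. It was at 741, 1395 and 1868 CPM in the neonatal controls and at 0.547, 7.52 and 24.6 CPM in the libraries labelled KO (-7.09 ± 0.60, adjusted p = 2.26e-08). Even so, 8 of the 9 values lay above all adult controls (0.306 to 1.58 CPM), and KO-labelled libraries 1 and 5 (1.8 and 0.547 CPM) were the lowest. Myl7 and Myl4, atrial myosin light chains of the early ventricle, had log2 fold changes of -2.65 ± 0.37 and -2.04 ± 0.43. Their ranges overlapped, since P7 control 1 was low in both. The summed atrial markers without Nppa were also lower, with a median of 284 CPM against 600 CPM in neonatal controls. The part of atrial tissue in the values of Myl7 and Myl4 was not tested. Myh8, perinatal myosin, was at 0.669 to 2.4 CPM against 0 to 0.244 CPM. Acta2, smooth muscle actin and an early cardiac actin, was at 753, 974 and 1388 CPM against 125, 201 and 418 CPM (-2.23 ± 0.21), so that it lay below while skeletal actin lay above. Myl9 (-2.00 ± 0.30) and Tpm2 (-0.70 ± 0.19), of the same smooth muscle kind, were lower as well.

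Among channels, Kcne1, a potassium channel subunit, was at 140.2, 197 and 274 CPM against 7.38, 13.5 and 35.5 CPM (-3.77 ± 0.30). The fetal T-type calcium channels Cacna1h, at 47.8, 84.4 and 113 CPM against 1.45, 6.88 and 15.7 CPM (-3.24 ± 0.43), and Cacna1g (-1.78 ± 0.22) were lower, as were Cacna1d (-1.02 ± 0.17) and the pacemaker channel Hcn4 (-0.94 ± 0.19). Kcne1 and Cacna1h in KO-labelled libraries overlapped their adult controls. Slc8a1, the sodium-calcium exchanger, was lower by -1.27 ± 0.37. KO-labelled library 3, at 865 CPM, lay apart from the other 8 (117 to 280.2 CPM) and inside the P1 range (696 to 919 CPM). Against P7 the difference of -0.69 was not called (adjusted p = 0.116).

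The cytoskeletal genes that stayed low included Marcksl1 (-2.70 ± 0.17), Stmn1, a microtubule-destabilising protein of dividing cells (-2.44 ± 0.25), Fscn1, an actin-bundling protein (-1.87 ± 0.17), and Tmsb10 (-1.47 ± 0.13). Marcksl1 was at 94.7, 108 and 167 CPM against 14.9, 17.3 and 28.3 CPM, and Tmsb10 at 115, 198 and 226 CPM against 53.9, 72.4 and 79.9 CPM, both above all adult controls (5.55 to 8.57 and 21.2 to 30.9 CPM). Tubb2b (-1.78 ± 0.36), Marcks (-0.87 ± 0.12) and Map1b (-0.55 ± 0.18) were lower with overlap.

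Among transcription factors, Sox4, a factor of early outflow tract and ventricle, was at 231, 250.5 and 318 CPM against 14.7, 24.9 and 46 CPM (-3.42 ± 0.19, adjusted p = 1.60e-10). Hey2, a Notch target of the compact ventricular wall, was at 19.6, 76.3 and 121 CPM against 2.94, 4.65 and 6.31 CPM (-3.84 ± 0.38). Hand1, of the embryonic left ventricle, was at 0.55 to 6.28 CPM in the neonatal controls and was read in 1 KO-labelled library only, with 2 counts. Hey2 was also lower than in the adult controls (5.86 to 8.52 CPM, log2 fold change -0.67, adjusted p = 1.68e-04), whereas Sox4 was higher than in its adult controls (14.7 to 20.4 CPM, 0.53, adjusted p = 0.00882). Sox11 (-4.60 ± 0.55), Mycn (-2.37 ± 0.24) and Irx4, a ventricular identity factor (-2.05 ± 0.19), were lower by 4-fold or more. Gata4 (-0.80 ± 0.10), Gata6 (-1.15 ± 0.15), Tbx20 (-0.76 ± 0.16), Meis1 (-1.04 ± 0.11), Meis2 (-0.82 ± 0.12), Hey1 (-0.68 ± 0.18), Tbx5 (-0.47 ± 0.18) and Mef2c (-0.35 ± 0.12) were lower by smaller amounts, and Tbx5 and Mef2c lost their call in some alternatives.

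The age of the neonatal reference changed several calls. Against P1, where 61.8% of 16920 genes were called (31% higher, 30.9% lower), 12 of 84 fetal genes were higher, 58 lower and 14 not called, with a median log2 fold change of -1.34. Against P7, where 56.9% were called (29.3% higher, 27.6% lower), 18 were higher, 49 lower and 17 not called, with a median of -0.83. These 2 comparisons share the KO-labelled libraries, and no difference between them was tested. A choice by age among the fetal genes that shares no library with the values gave the same order of counts. The fetal lists themselves were chosen with earlier results of these data known, so this choice is not independent of the values. Of the 68 fetal genes lower in adult controls than in P1 controls, the libraries labelled KO were lower than P7 controls for 48, higher for 9 and not called for 11, of which 9 had an interval inside 2-fold (median -1.26). Of the 62 lower in adult controls than in P7 controls, they were lower than P1 controls for 50, higher for 4 and not called for 8, of which 7 had an interval inside 2-fold (median -2.28). Between adult and P1 controls 73.4% of 16388 genes were called (38.4% lower and 35% higher in adult), and between adult and P7 controls 69.1% (35.9% lower).

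Some fetal genes differed between the 2 times after knockout. Between the 14-day and 7-day libraries 8.64% of genes were called (3.63% higher at 14 days, 5.01% lower), and 5 of 84 fetal genes were higher and 6 lower. Tnni1 was higher at 14 days by a log2 fold change of 1.91 ± 0.46 (adjusted p = 0.0187), with 9.32 to 24.6 CPM against 0.547 to 7.52 CPM. Myl4 (1.37), Kcne1 (1.12), Cdkn1c (0.86) and Ankrd1 (0.78) were also higher. Tubb6 (-1.15), Peg10 (-1.06), Actn1 (-0.79), Tpm2 (-0.64) and Cacna1d (-0.60) were among the lower ones. The 7-day group holds libraries 1 and 5, which stood apart, and time and any processing difference between the 2 groups cannot be told apart.

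Cell division genes did not return to the neonatal level. Of 45 mitosis genes, 44 were lower than in neonatal controls and 1 was higher, with a median log2 fold change of -2.12. In 34 of them no KO-labelled library reached any neonatal one, as for 14.2% of all genes tested. Over all genes tested, 31.5% were called lower than in neonatal controls and 31.6% higher. Ube2c, which tags mitotic cyclins for destruction, was at 56.2, 61.1 and 128 CPM in the neonatal controls and at 2.72, 9.98 and 19.1 CPM in the libraries labelled KO (-2.93 ± 0.32), with adult controls at 1.47 to 4.27 CPM. The 1 higher gene, named after its value was seen, was Pttg1, the separase inhibitor securin (0.96 ± 0.14), which was higher still in adult controls (81.9 to 103 CPM). The summed level of the mitosis genes was 958 to 2453 CPM in the neonatal controls, 196 to 634 CPM in the libraries labelled KO and 247 to 295 CPM in adult controls. By summed level, only KO-labelled library 8 lay under the adult controls. By mean log2 level that library lay within their range (0.60 against 0.54 to 1.53). Against adult controls, 41 of 45 mitosis genes were higher and 2 lower (median 1.67). Over all genes, 30.7% were higher and 29.4% lower in that comparison. Of 34 DNA replication genes, 33 were lower than in neonatal controls (median -1.23), but none had separate ranges. Against adult controls, 24 of the 34 were higher and 1 lower (median 0.88). P1 control 3, at 287 CPM summed, lay within the KO-labelled range of 177 to 578 CPM. Rrm2, the inducible ribonucleotide reductase subunit, gave -2.67 ± 0.43, while Prim2 was not told apart (-0.23 ± 0.23). Of 19 cell cycle entry genes, 14 were lower and 3 higher. E2f1 was lower (-1.92 ± 0.36) and Cdkn1a, the p21 inhibitor of the cycle, higher, at 32.6, 58.1 and 63.7 CPM against 69, 179 and 404 CPM (1.89 ± 0.32), with adult controls at 47.2 to 209 CPM.

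**Figure D3:**
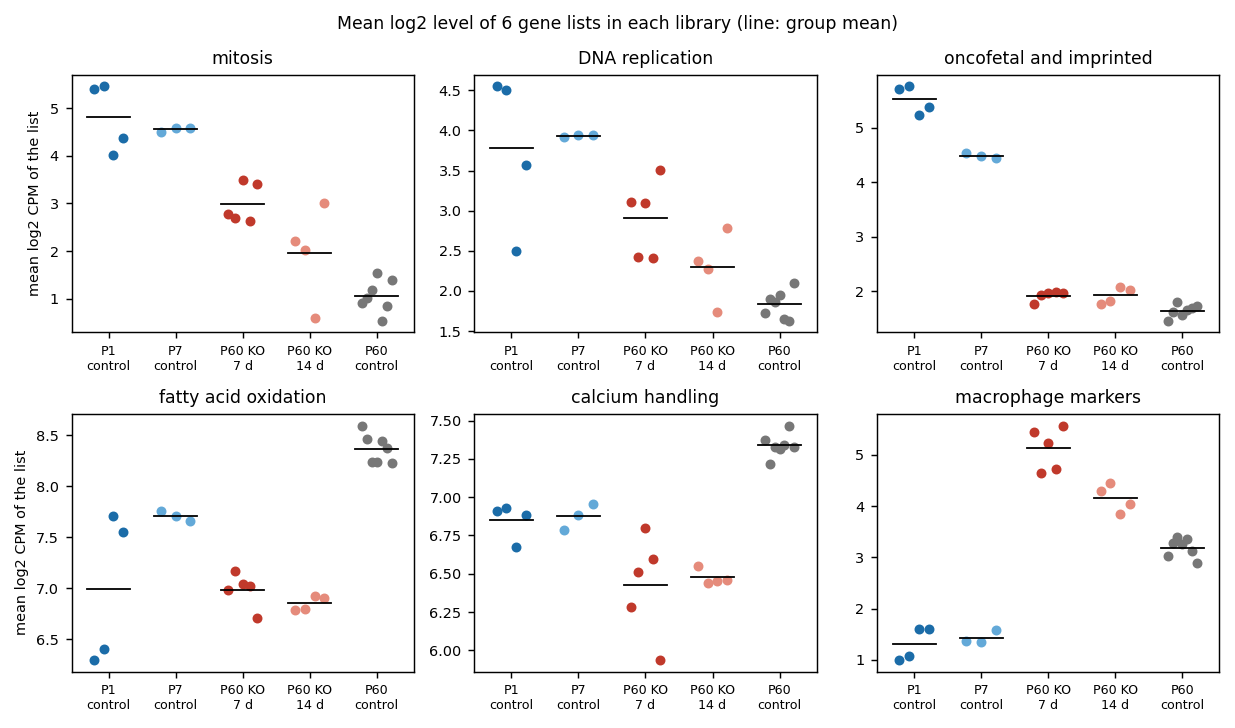
Mean log2 CPM of the members of 6 gene lists in every library, by group. Each point is 1 library. Mitosis and oncofetal genes in the libraries labelled KO lie under all 7 neonatal controls, DNA replication overlaps P1 control 3, fatty acid oxidation overlaps the neonatal range, and macrophage markers lie above both control ages.

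Fatty acid oxidation genes stayed under the adult level, and the neonatal controls lay on both sides of the KO-labelled libraries. Of 32 fatty acid oxidation genes, 18 were lower than in neonatal controls and 3 higher (median -0.46), with a summed level of 6505 to 9217 CPM against 5415 to 10933 CPM, and 21517 to 26679.8 CPM in adult controls. The median was -0.23 against P1 and -0.73 against P7, and adult controls over neonatal ones gave 1.07. P1 controls 1 and 2 (summed 5415 and 5744 CPM) lay under every KO-labelled library. P1 controls 3 and 4 (10806 and 9601 CPM) and the P7 controls (10292 to 10933 CPM) lay above every one. The P1 median thus pools controls from both sides. Against adult controls, 31 of 32 were lower. Acot1, a long-chain acyl-CoA thioesterase with near-identical neighbours, was furthest below, at 9.17, 61.6 and 142 CPM against 1.21, 2.76 and 6.88 CPM (-4.45 ± 0.52). Pdk4, which turns glucose oxidation down, was higher (1.46 ± 0.43), and Cpt2 was not told apart (-0.34 ± 0.20).

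Nuclear genes of the respiratory chain had a median of -0.07, with 4 higher and 11 lower of 47, whereas all 47 were higher in adult than in neonatal controls. Under total count scaling 34 were lower and 1 higher. Their summed level was 20993 to 24077 CPM in the neonatal controls. It was lower in every 7-day library (16045 to 20484 CPM) and inside that range at 14 days (21299 to 23064 CPM). By mean log2 level, both times overlapped the neonatal range of 8.03 to 8.28. The 7-day libraries were at 7.74 to 8.14 and the 14-day libraries at 8.22 to 8.30. Citric acid cycle genes gave 2 higher and 8 lower of 22, or 1 and 17 under total count scaling. Idh2, a mitochondrial isocitrate dehydrogenase, was lower (-0.87 ± 0.11), and Mpc1, the pyruvate carrier, higher (1.16 ± 0.10). Of the 13 mitochondrially encoded genes, 8 were higher and none lower (median 0.68). Their share of all counts was 17.8% ± 2.15 (SD, n = 9) against 13.6% ± 2.08 (n = 7) in neonatal controls (two-sided exact permutation test, p = 0.00166, 0.00415 adjusted over 5 comparisons) and 26 to 29.6% in adult controls. Against the P7 controls alone the difference of 2.27 percentage points was not called by the exact test (p = 0.109). Glycolysis genes gave 4 higher and 1 lower of 17, with a median of 0.10 that turned to -0.17 under total count scaling. Aldoc, the fetal and brain aldolase, was lower, at 2.34, 14.5 and 23.7 CPM against 0.169, 0.506 and 0.976 CPM (-4.61 ± 0.52).

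Pooled over both times, adult contractile genes lay close to the neonatal level, but the summed levels of the 2 times lay apart. Of 20, 8 were higher and 1 lower (median 0.23, or -0.03 with 5 higher and 5 lower under total count scaling). All 20 were higher in adult than in neonatal controls (median 0.81). Their summed level was 53690 to 70255 CPM in the neonatal controls. It was 38773 to 72594 CPM at 7 days and 77654 to 90135 CPM at 14 days, the latter above every neonatal control. KO-labelled libraries 1 and 5 (49833 and 38773 CPM) lay under every neonatal control. Myh6, the adult alpha-myosin heavy chain, was at 9335, 14805 and 19037 CPM against 6413, 15042 and 19624 CPM (-0.00 ± 0.22, interval -0.48 to 0.47), with adult controls at 24129 to 30519 CPM. Ckmt2, mitochondrial creatine kinase, was higher at 173, 245 and 489.6 CPM against 668, 804 and 1136 CPM (1.42 ± 0.22), under the adult controls (2296 to 2891 CPM). The lower one, named after its value was seen, was Ckm, muscle creatine kinase (-0.53 ± 0.17).

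Calcium handling genes gave 3 higher and 10 lower of 19 (median -0.47), or 1 and 10 without P1 controls 3 and 4. Cacna1c, the L-type calcium channel, was at 268, 325 and 396 CPM against 54.6, 112 and 268 CPM (-1.46 ± 0.27), lower than both neonatal and adult controls (288 to 369.9 CPM). Adult channel genes split into 7 higher and 5 lower of 17. Scn4b, a sodium channel subunit, was at 0.128, 0.421 and 0.861 CPM against 2.79, 6.98 and 27.1 CPM (4.73 ± 0.60), between the neonatal and the adult controls (38.7 to 69.8 CPM). Kcnip2, which sets the transient outward current, was at 83.7, 113 and 139.6 CPM against 5.62, 33.9 and 56.4 CPM (-1.85 ± 0.37), under the neonatal level of a gene that is at 312 to 398 CPM in adult controls. KO-labelled libraries 1 and 5 were the lowest, at 5.62 and 6.06 CPM.

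Among metabolic regulators, 6 were higher and 4 lower of 18, or 4 and 11 under total count scaling. Both deiodinases were higher: Dio3, which inactivates thyroid hormone, was at 0.803, 1.13 and 8.09 CPM against 0 to 0.361 CPM in the neonatal controls (5.51 ± 0.91), and Dio2, which activates it, gave 1.84 ± 0.35. Splicing regulators were mostly lower, 13 of 18 with 3 higher (median -0.38). Rbm20, the splicing factor of titin, was at 222, 272 and 279.7 CPM against 114, 133 and 177 CPM (-0.96 ± 0.09), and Rbfox1 (-0.99 ± 0.24) was far under the adult controls (58.8 to 72.2 CPM). Mbnl1 itself (0.77 ± 0.15) and Mbnl2 (0.57 ± 0.11) were higher than in neonatal controls and Mbnl3, the fetal family member, lower (-1.12 ± 0.27).

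**Figure D4:**
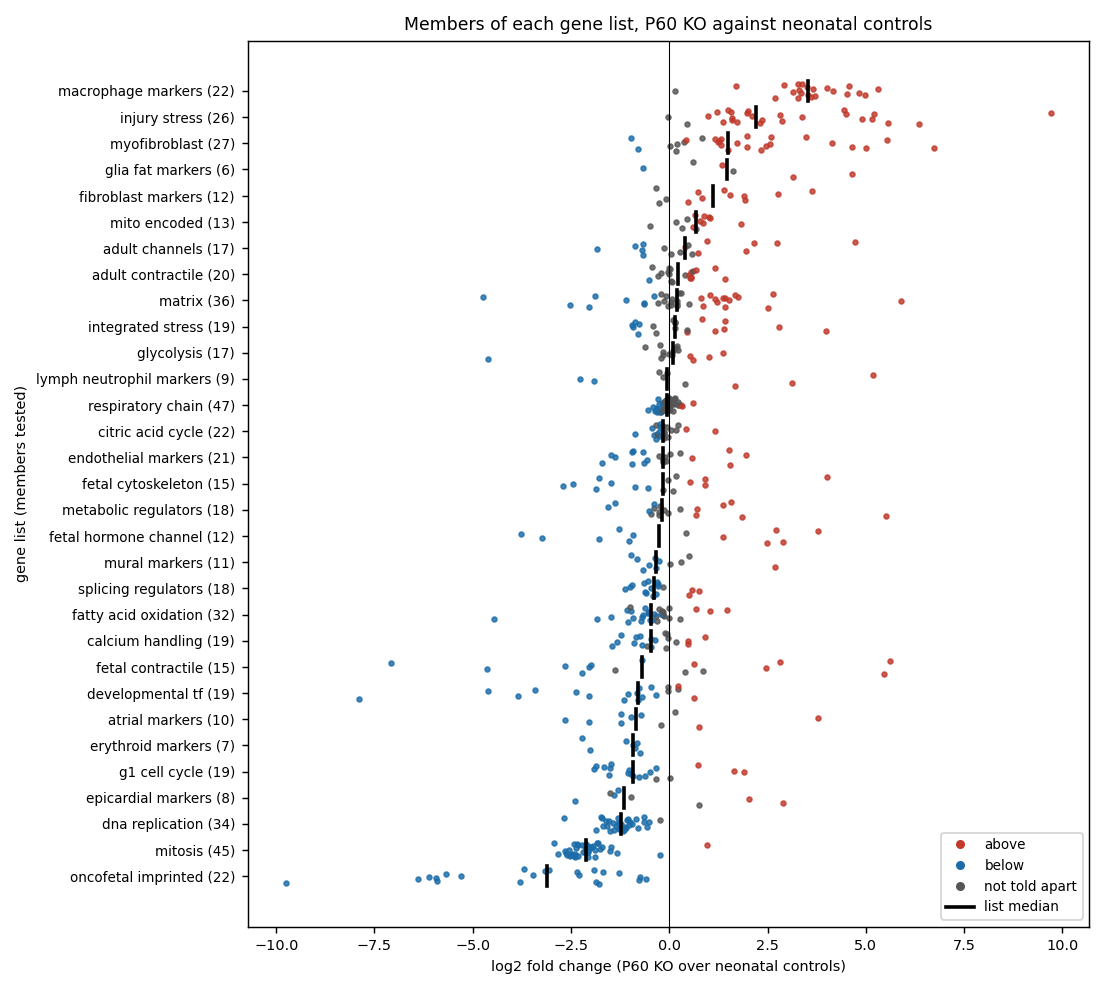
Log2 fold change of libraries labelled KO over neonatal controls for the tested members of 31 gene lists, 1 point per gene, with a bar at the list median. Macrophage, injury and myofibroblast lists lie furthest to the right, and oncofetal and mitosis lists furthest to the left.

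Injury genes were higher in the libraries labelled KO than in either newborn or adult controls. Of 26 injury genes, 24 were higher and none lower (median 2.20, against 0.60 for adult over neonatal controls), and 26 of 27 were higher than in adult controls. Sprr1a, a cornified envelope protein induced in stressed cardiomyocytes, was at 0.0319, 0.0963 and 0.656 CPM against 57.9, 121 and 229 CPM (9.71 ± 0.54), with adult controls at 0.0593 to 0.374 CPM. Clu, the secreted chaperone clusterin, was at 83.8, 114 and 190.0 CPM against 4216, 6069 and 7137 CPM (5.56 ± 0.22, adjusted p = 5.04e-12), with adult controls at 473 to 849 CPM. For both genes all libraries labelled KO lay above all neonatal and all adult controls. Myofibroblast genes were higher in 20 of 27 and lower in 2 (median 1.5), while adult controls over neonatal ones gave -1.40. Cilp, a matrix protein of scar-forming fibroblasts, was at 0.385, 1.51 and 5.88 CPM against 83.2, 343 and 451 CPM (6.74 ± 0.64). Spp1, osteopontin, gave 5.53 ± 0.96, with 8.21 to 112 CPM at 7 days and 3.68 to 4.94 CPM at 14 days (14 minus 7 days, -3.81).

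Matrix genes split: 14 of 36 were higher and 8 lower, with a median of 0.20 that turned to -0.04 under total count scaling. Col8a1, a short-chain collagen, was at 2.23, 6.38 and 12.4 CPM against 239, 358 and 434 CPM (5.88 ± 0.37). Fbn2, the fetal fibrillin, was at 81.2, 111 and 190.5 CPM against 2.97, 3.55 and 7.65 CPM (-4.74 ± 0.25). Col1a2, fibrillar collagen, was not told apart (0.50 ± 0.25), at 739.7, 885 and 2049.5 CPM in the libraries labelled KO, with adult controls at 177 to 224 CPM. Stress response genes of the ATF4 kind split into 7 higher and 5 lower of 19, and their median of 0.14 turned to -0.10 under total count scaling.

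Markers of other cells split by cell type. Of 22 macrophage markers, 21 were higher and none lower (median 3.52), with a summed level of 962 to 2322 CPM against 100.1 to 169.7 CPM and 492 to 779 CPM in adult controls. Lyz2, lysozyme, was at 8.92, 13.8 and 24.9 CPM against 204, 342 and 569.7 CPM (4.57 ± 0.29), and the 1 marker not called was Cx3cr1 (0.15 ± 0.43). Resting fibroblast markers were higher in 9 of 12 and lower in none, summing to 1864 to 4279.9 CPM against 1054 to 1427 CPM. Pi16 was the furthest above (3.63 ± 0.56). Adult controls summed to 2494 to 3637 CPM for the fibroblast markers, inside the KO-labelled range. In adult over neonatal controls, 7 of the 12 were higher and 3 lower. Against adult controls, 6 were higher in the libraries labelled KO and 2 lower. Mural markers gave 1 higher and 7 lower of 11, and the higher one was Des, desmin (2.69 ± 0.11), which cardiomyocytes also carry. Endothelial markers gave 4 higher and 9 lower of 21, epicardial markers 2 and 3 of 8, and all 7 tested red cell markers were lower. Lymphocyte, neutrophil and mast cell markers gave 3 higher and 2 lower of 9, and glial and fat cell markers 3 and 1 of 6. Outside red cells no list had a marker at 0 in all libraries of a group. The part of these cell types in the fetal, matrix and injury values was not tested.

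Genes were also chosen by age alone, with the neonatal age used for the choice kept out of the comparison. These sets were not compared with the adult controls. Of 2854 genes at least 2-fold higher in P1 than in adult controls, 65.3% were lower in libraries labelled KO than in P7 controls, 29.3% were not called and 5.40% were higher (median log2 fold change -0.99, against 0.01 for all genes). An interval within 2-fold of P7 was found for 20.6% of them, against 52.7% of all genes. Over all 16920 genes, 27.6% were lower than in P7 controls and 29.3% higher. Against P1 controls, 30.9% of all genes were lower and 31% higher. Of 2660 genes so chosen from P7, 74.7% were lower than in P1 controls and 5.64% higher (median -1.14). On the adult side, 63.8% of 2448 genes higher in adult than in P1 controls were higher in the KO-labelled group than at P7, and 6.54% were lower (median 0.88). For the 2050 chosen from P7, 75.1% were higher than at P1 and 3.32% lower (median 1.24).

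**Figure D5:**
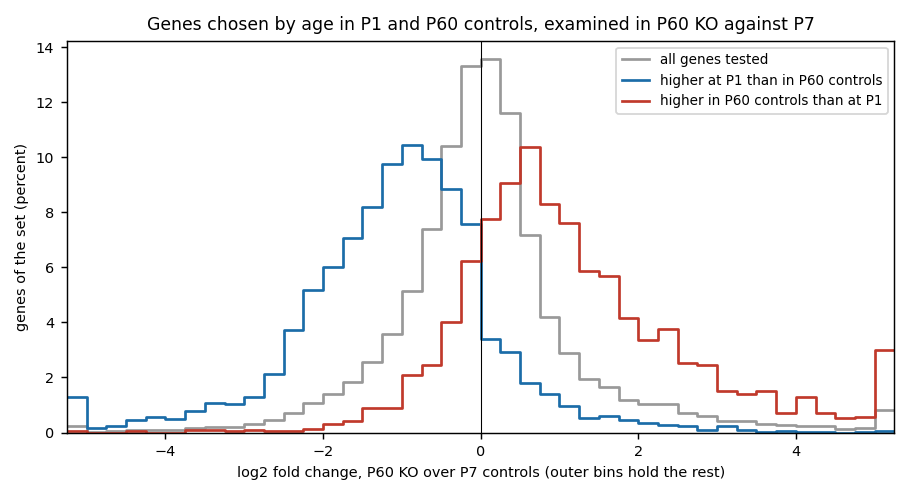
Distribution of the log2 fold change of libraries labelled KO over P7 controls for all genes tested, for genes higher in P1 than in adult controls, and for genes higher in adult than in P1 controls. The outermost bins hold all values beyond them. The P1-high set has its median at -0.99 and the adult-high set at 0.88, with a tail of each on the other side of 0.

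Within the P1-high set, the genes furthest above P7 were Tnnt3 (5.78), Nppa (4.82), Atf3, a stress-induced transcription factor (3.34), Gdf6, a BMP family ligand (3.31), Krt80 (3.16) and Thbs4, a matrix thrombospondin (3.14). Atf3 was at 5.16 to 146 CPM in the P1 controls and 3.45 to 6.3 CPM in the P7 controls, so that its pooled value (0.45) was not called. Those furthest below were Bmp10, a ligand of the embryonic trabeculae and atria (-9.30), Dlk1 (-8.25), Cpa1 (-8.08), Tnni1 (-6.56), Rxfp1, the relaxin receptor (-5.66), and Nrk (-5.32). Bmp10 was at 0.209 CPM in P7 control 1 and at 7.98 CPM or more in the other 6 neonatal libraries, and no KO-labelled library held more than 2 reads of it.

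Over all genes, the 8 largest positive differences included several immune genes. Igha, an immunoglobulin heavy chain, had no read in the 7 neonatal libraries and was at 13.6, 43 and 80.6 CPM in the libraries labelled KO. That is at least 2815-fold higher against a floor of 3 counts over the neonatal group. Igha was also called higher in adult than in P1 controls, by at least 2-fold. Cxcr6, a chemokine receptor of T cells, was at 11.8, 32.4 and 38 CPM against 0 to 0.139 CPM in the neonatal libraries (8.60 ± 0.43), and adult controls were as low (0.0593 to 0.221 CPM). H2-Aa, an MHC class II chain, was at 75.7, 138 and 190.0 CPM (7.25 ± 0.32). Hrasls (8.92 ± 0.33), Cxcl14 (7.26 ± 0.68) and Ifi205 (7.08 ± 0.44) were also among the 8 largest, with Esr1 and Sprr1a. Unlike Cxcr6, these 3 overlapped the adult controls, with Hrasls at 24.1 to 34.5 CPM there against 12.5 to 25.5 CPM in the libraries labelled KO. The largest negative differences were Dlk1, Cpa1, a pancreatic type carboxypeptidase (-8.11 ± 0.38), Tnni1, Rxfp1 (-6.52 ± 0.41), Igf2, H19, Mest and Bmp7, a BMP ligand (-5.55 ± 0.42), of which 5 belong to the fetal groups.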

How the data were processed

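Ventricular RNA from 27 mouse libraries was extracted with TRIzol and a Qiagen kit and sequenced on the DNBseq platform, per the labels' protocols. The authors deposited 1 table of whole-number read counts per gene for 55487 genes, and the submitters' processing notes name STAR, featureCounts, DESeq2 and Salmon with GRCm38 (mm10), without a role or version. How strand and reads of near-identical copies were treated is not given in the sources used here. Symbols and positions were matched in GENCODE M21 for 55141 genes. Promoter sequences are from RefSeq (GRCm38.p6).

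The 9 libraries labelled KO were tested against the 7 neonatal controls with edgeR 4.0.16 (R 4.3.3, limma 3.58.1): quasi-likelihood F test with robust fitting, filterByExpr by group, TMM scaling, Benjamini-Hochberg adjustment over all genes tested and a call at 0.05. "Above" and "below" are calls, "not told apart" is no call, and "within 2-fold" means a 95% interval of the log2 fold change inside -1 to 1. P1, P7 and the 2 times after knockout were compared in a 4-group fit of the same 16 libraries. The adult and neonatal controls were compared in the 14 control libraries, and the libraries labelled KO with the adult controls in their own 16. Levels are CPM after TMM over all 27 libraries. The mitochondrial share was tested with an exact permutation test. Scripts were tested on simulated data. Depth limits low genes: 3 counts equal 0.128 CPM in the shallowest of the 16 libraries, and this covers counting error only. No pair of replicate libraries agreed within sampling noise (chi-square per degree of freedom 6.34 to 147 over 25 pairs).

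Named genes leave out 2 fetal group members that are counted in the groups and not reported here by name. The members and gene lists (31 lists, 640 of 641 entries matched) were chosen with earlier results of these data known. Named genes were the other fetal group members, the Mbnl genes and Esr1, in other lists up to 4 called members with the largest change at a mean of at least 1 CPM and up to 3 not called, and the 8 largest rises and 8 largest falls over all genes at a mean of at least 5 CPM without overlap between groups (predicted genes and pseudogenes left out), with 6 and 6 in the P1-high set. Alternatives were total count scaling, DESeq2 size factors, DESeq2 1.42.0, limma-voom, no filter, no mitochondrial genes, a 4-group fit, all 27 libraries, sex as covariate, a replicate block, each library left out, and KO-labelled libraries 1 and 5 left out. Leaving out P1 controls 3 and 4, and the libraries of the block fit without the block, were added after seeing the data.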

Additional observations from a re-analysis of the deposited data

Results flagged for a closer look

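Within groups of 4 or 5 libraries, 5 of 126 gene and group combinations held 1 library far from the rest, where chance gives about 1 in 20. They were Slc8a1 in KO-labelled library 3 of 7 days (865 CPM), Hand1 in KO-labelled library 8 of 14 days (0.0836 CPM), Tnni1 in P1 control 3 (1395 CPM), Tubb3 in P1 control 4 (2.26 CPM) and Col8a1 in P1 control 4 (12.4 CPM).

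Of 175 named genes, 28 differed between the 14-day and 7-day KO-labelled libraries in edgeR's test of that difference (15 higher and 13 lower at 14 days, log2 fold change 14 over 7 days), where 8.64% of all 16920 genes were called, and the named genes were in part picked for large changes. Among genes of the fetal groups the values were 1.91 for Tnni1, 1.37 for Myl4, 1.12 for Kcne1, 0.86 for Cdkn1c, 0.78 for Ankrd1, -0.60 for Cacna1d, -0.64 for Tpm2, -0.79 for Actn1, -1.06 for Peg10 and -1.15 for Tubb6. Injury and matrix genes gave -3.81 for Spp1, -3.25 for Ankrd2, 1.30 for Nupr1 and 2.11 for Comp. Macrophage markers were lower at 14 days, with -2.53 for Ccr2, -1.87 for Cx3cr1 and -0.86 for Lyz2, and fibroblast and endothelial markers higher, with 1.39 for Pi16, 1.23 for Gsn and 0.76 for Vwf. Muscle channel and contractile genes of the adult gave -1.99 for Scn4b, -1.02 for Cacna1c and 0.81 for Myl2. The others were Dio2 (1.48), Pttg1 (0.58), Idh2 (0.42), Mpc1 (0.35) and Nrk (-1.58). KO-labelled libraries 1 and 5 are both in the 7-day group, and their part in these values was not tested.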

How the results depend on the processing

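Of 173 named genes with a test, 135 kept their direction and call under every alternative run. Of the fetal genes, 10 of 16 above, 47 of 56 below and 5 of 11 not told apart kept their class under all 29 alternatives, and none was called in the other direction. Genes above the neonatal level numbered 11 to 18 and genes below it 49 to 58 over these alternatives, and leaving out 1 library at a time gave 15 to 17 and 54 to 55. Leave-one-out counts over all genes were 4678 to 4945 higher and 4746 to 5027 lower.

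Total count scaling lowered the count of higher genes to 3270 in the pooled comparison (from 4945), to 3486 against P1 (from 5240) and to 3285 against P7 (from 4954). A 4-fold minimum for the age sets gave 2.95% (from 5.64%) of the genes higher in P7 than in adult controls above P1 and 4.23% (from 6.54%) of the genes higher in adult than in P1 controls below P7. The mitochondrial share differed from P7 alone by 2.27 percentage points (exact p = 0.109).

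Same-numbered libraries did not deviate together (r from -0.156 to 0.0377 over 10 pairs), so the numbers do not pair the samples. A fit with the replicate number as a block used only libraries numbered up to 4, so all of its KO-labelled libraries are of 7 days. It gave 3849 higher and 3856 lower genes and 11 fetal genes above and 49 below. The same libraries without the block gave 4282, 4329, 17 and 51.

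These log2 fold changes changed sign, and except for Yap1 the gene was not called in the reported comparison. Myh7 was 0.10 in the 4-group fit and 0.077 with all 27 libraries. Tubb6 was -0.064 with total counts, -0.039 with limma-voom, -0.012 with all libraries, -0.32 without KO-labelled libraries 1 and 5, and -0.081 to 0.28 with 1 library left out (negative without library 5). Tuba1a was 0.075 with the replicate block, 0.048 in the libraries of that fit without the block, and -0.16 to 0.084 with 1 library left out (6 of 16 above 0). Dbn1 was -0.17 with total counts, -0.12 without KO-labelled libraries 1 and 5, -0.0011 without P1 controls 3 and 4, and -0.014 to 0.13 with 1 library left out (negative without library 5). Nkx2-5 was 0.051, 0.027 and 0.081 in the 4-group fit, with all libraries and without P1 controls 3 and 4, and -0.098 to 0.033 with 1 library left out (4 of 16 above 0). Sox9 was -0.023 and Yap1 -0.035 with total counts. Tead1 was 0.12 with the block, 0.11 in the libraries of that fit without the block, and -0.078 to 0.0021 with 1 library left out (above 0 without P1 control 2). Myh6 was 0.0013 without the filter, 0.17 without KO-labelled libraries 1 and 5, and -0.091 to 0.078 with 1 library left out (7 of 16 above 0). Cx3cr1 was -0.074 with total counts, -0.053 with limma-voom, -0.19 and -0.21 in the 4-group and all-library fits, -0.36 without KO-labelled libraries 1 and 5, and -0.072 to 0.30 with 1 library left out (negative without library 1 or 5).

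Nes lost its call without KO-labelled library 1, 5, 6 or 7 or P1 control 1, 3 or 4 (0.67 to 0.87), Tbx5 without KO-labelled library 1, 3, 5 or 6, P7 control 2 or P1 control 2, 3 or 4 (-0.47 to -0.38), and Yap1 without any 1 P7 control (0.21). Hmga1 lost its call (-0.82 to -0.66) in each such fit except the one without KO-labelled library 5. Cnn1 gained a call without KO-labelled library 5 or 9 or P1 control 1 or 4 (0.95 to 1.07). Ccnd1 gained one without KO-labelled library 7 (-0.43) or P1 control 3 (-0.44), Cpt2 without P1 control 1 or 2 (-0.46), Ppargc1a without KO-labelled library 3 (-0.59) and Atf3 without P1 control 2 (1.52). The causes were not tested.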
